A study of Mus musculus with 6 samples.

Results

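The 20 sites described here are the Gli3 binding sites around *Gse1* and *Gins2*, which lie tail to tail on mouse chromosome 8. Gli3 was mapped by chromatin immunoprecipitation with sequencing (ChIP-seq) in wild-type cerebral cortex at embryonic day 15 (E15), with 3 Gli3 ChIP libraries and 3 input libraries of chromatin without immunoprecipitation. All 6 libraries came from untreated wild-type tissue, so that no treatment or genotype was compared. The cortex was used whole, and a site cannot be attributed to a cell type. The authors joined the replicates into 1 list by irreproducible discovery rate (IDR) analysis, which keeps peaks whose rank recurs between replicates. The deposited copy used here holds 4114 sites. It gives the position of each site and no height, score or p-value. The read depth is therefore unknown, the marker genes of the tissue could not be checked, and the values below carry no error between replicates.

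The sites were chosen by their measured positions. A site was taken if *Gse1* or *Gins2* was the protein-coding gene whose transcription start site (TSS) was nearest to the midpoint of the site, with 1 start per gene, the most upstream one in the GENCODE M21 annotation. Of the 254 sites on chromosome 8, 20 met this rule, 8 for *Gse1* and 12 for *Gins2*. The locus was picked for its number of sites, so that the number and the density are descriptions only. The rule also largely fixes that the sites lie between the 2 starts, most of which is the body of *Gse1*, so that this position is a description too. The widths, base composition and motifs were not used in the choice. They are also given without a test, since the 20 sites are neighbours at 1 locus and not replicates.

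Gli3 is a zinc finger transcription factor of the Sonic hedgehog (Shh) pathway. Without the Shh ligand it is processed into a repressor, and in the cortex this repressor form restrains hedgehog target genes. GLI proteins recognise a short DNA word, of which GACCACCCA is the core. *Gse1* encodes a coiled-coil protein found with histone deacetylases and the demethylase LSD1 in corepressor complexes of the CoREST type. *Gins2* encodes a subunit of the GINS complex, which joins Cdc45 and the Mcm2-7 ring to form the CMG helicase that unwinds DNA at replication forks.

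Few of the sites at this locus carried the exact GLI word. An exact core occurred in 2 of the 20 sites, site 6 and site 14 counted from the 5′ end of *Gse1*, and at 2 further places between the outermost sites that are outside any site. They are shown in mm10 as 41 bases on the strand that reads GACCACCCA, with the core in capitals.
Site 6 (chr8:120370377-120370417, minus strand): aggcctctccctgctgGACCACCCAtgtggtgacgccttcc
Site 14 (chr8:120485019-120485059, minus strand): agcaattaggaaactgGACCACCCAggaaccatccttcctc
Outside sites (chr8:120341017-120341057, minus strand): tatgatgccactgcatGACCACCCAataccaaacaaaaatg
Outside sites (chr8:120354078-120354118, plus strand): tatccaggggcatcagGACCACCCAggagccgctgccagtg

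Words 1 base away from the core were more frequent, and the 4 that lay within 250 bp of the midpoint of a site are shown with the 9-base word in capitals. Substitutions are counted from the 5′ end of the core, with the base of the core first.
Site 2, G1C, word at chr8:120300675-120300683, minus strand: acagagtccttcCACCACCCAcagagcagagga
Site 13, C7A, word at chr8:120460360-120460368, minus strand: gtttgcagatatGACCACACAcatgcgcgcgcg
Site 20, G1A, word at chr8:120558457-120558465, plus strand: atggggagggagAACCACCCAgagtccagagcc
Site 20, C6A, word at chr8:120558713-120558721, minus strand: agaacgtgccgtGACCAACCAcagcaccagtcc

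*Gse1* has several starts, and these differed in whether Gli3 was listed over them. The 150 bases before 4 annotated starts are shown from the mm10 genome on the strand of transcription, 2 starts without a site and 2 with one. Capitals mark the SP motif GGGCGGGG, read on either strand, and in *Gse1-201* also the SOX motif ACAAAG. No exact GLI core occurred in these 4 stretches. The start of *Gse1-202*, also within site 19, is not shown. Neither the SP nor this SOX motif occurred in the 150 bases before it.
*Gse1-206*, the most upstream start, without a site (chr8:120228306-120228455, plus strand): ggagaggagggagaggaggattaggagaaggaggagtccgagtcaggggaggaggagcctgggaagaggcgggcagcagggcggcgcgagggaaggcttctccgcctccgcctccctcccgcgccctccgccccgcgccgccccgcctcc
*Gse1-201*, within site 15 (chr8:120488297-120488446, plus strand): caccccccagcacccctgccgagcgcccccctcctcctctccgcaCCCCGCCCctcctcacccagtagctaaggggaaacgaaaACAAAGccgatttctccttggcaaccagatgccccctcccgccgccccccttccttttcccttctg
*Gse1-203*, within site 19 (chr8:120535707-120535856, plus strand): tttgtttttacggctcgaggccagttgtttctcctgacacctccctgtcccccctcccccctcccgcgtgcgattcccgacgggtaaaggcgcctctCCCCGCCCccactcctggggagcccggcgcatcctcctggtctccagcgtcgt
*Gins2-201*, without a site (chr8:120589305-120589454, minus strand): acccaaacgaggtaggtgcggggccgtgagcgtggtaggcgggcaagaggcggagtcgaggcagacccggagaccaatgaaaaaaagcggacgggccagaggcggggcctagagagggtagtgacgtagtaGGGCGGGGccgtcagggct

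All 20 sites lay within the body of *Gse1*, and none overlapped *Gins2*. *Gse1* (ENSMUSG00000031822.20) spans chr8:120228456-120581390 on the plus strand, 352.9 kb, and *Gins2* (ENSMUSG00000031821.11) spans chr8:120578633-120589304 on the minus strand, 10.7 kb. The 3′ ends of the genes overlap by 2758 bp. The gene-level starts are 360848 bp apart, and a midpoint more than 180424 bp from the start of *Gse1* counted for *Gins2*. Site 8, with its midpoint 176.4 kb from the start of *Gse1*, was the last counted for *Gse1*, and site 9, at 180.6 kb, was the first counted for *Gins2*. Only 393 bp separated these neighbours. When every start of every protein-coding transcript was used, *Gse1* was nearest for 20 sites and *Gins2* for 0. The 12 sites counted for *Gins2* were thus assigned by the distance to the first start of *Gse1*, and all lay inside introns or at later starts of *Gse1*.

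**Figure D1:**
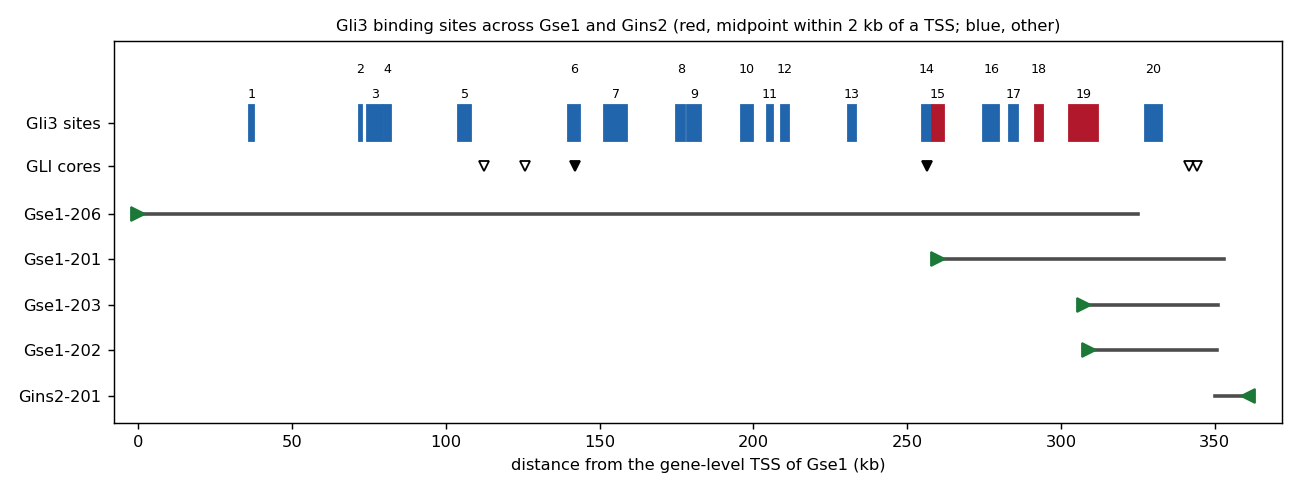
The 20 sites are drawn to scale as blocks against the distance in kb from the most upstream start of *Gse1*, with filled triangles for exact GLI cores inside sites, open triangles for cores outside, and lines for transcripts whose arrowheads mark the start and direction. The blocks begin 36.1 kb into *Gse1*, 3 red blocks lie within 2 kb of an annotated start, and no block reaches the start of *Gse1-206* or *Gins2-201*.

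The first site began 36.1 kb downstream of the *Gse1* start, and the last ended 20.1 kb before the 3′ end of the gene and 28.0 kb from the start of *Gins2*. The span from the first to the last, chr8:120264574-120561299, was 296.7 kb long, and sites covered 76.2 kb of it, or 25.7%. This amounts to 6.74 sites per 100 kb, whereas the assembled chromosomes held 0.150 sites per 100 kb and had 0.343% of their length in sites. Gaps between neighbouring sites ranged from 247 to 34179 bp with a median of 8471 bp. The median gap over all sites was 224294 bp. Sites less than 10 kb apart formed 10 groups, of which 4 were single sites.

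The number of sites differed between stretches of the gene, and this was not tested. Divided into 5 equal stretches from the start of *Gse1*, the gene held 1, 4, 7, 4 and 4 site midpoints. The third stretch, from 141 to 212 kb, had the most sequence in sites, 26.0 kb, and the first had the least, 1.4 kb. The fifth stretch had 20.5 kb in sites. From the first to the fifth, the GC content was 54.4%, 53.9%, 54.3%, 53.8% and 56.2%. Its relation to the sites was not tested.

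Beyond the cluster, the flanking sites were far away. On the side of *Gse1*, the next site was 75.4 kb from site 1, at chr8:120184323-120189124. It was nearest to *Fam92b*, whose start had a second site over it. On the side of *Gins2*, the next site was 1091.5 kb from site 20, at chr8:121652822-121654464 near *Zcchc14*. The 5 protein-coding genes next after *Gins2* (*1190005I06Rik*, *Gm27021*, *Cox4i1*, *Emc8* and *Irf8*) had 0 sites within 50 kb of their starts. On the other side, *Zdhhc7*, *6430548M08Rik*, *Crispld2* and *Gm20388* had 0, and *Fam92b* had 2.

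In the longest transcript model that begins at the gene-level start, *Gse1-206*, the first intron is 123.3 kb and the second is 199.4 kb. Intron 1 held sites 1 to 5, with 11.4% of its length in sites, and intron 2 held sites 6 to 19, with 28.4%. Site 20 lay beyond the end of this model, in intron 2 of *Gse1-201*. Exon sequence of *Gse1* was present in only 2 of the 20 sites, 705 bp in site 15 and 232 bp in site 19. Exons of the noncoding genes that lie in sites 18 and 19 were not counted.

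Within intron 1, site 1 (chr8:120264574-120265973) was short, at 1400 bp, and stood alone, with 34179 bp to its neighbour. Site 2 (chr8:120300153-120301233) was the narrowest of the cluster, at 1081 bp, and opened a group of 3 with site 3 (chr8:120302974-120308043, 5070 bp) and site 4 (chr8:120308291-120310504, 2214 bp). Sites 3 and 4 were separated by 247 bp, the smallest gap of the cluster. Site 5 (chr8:120332423-120336731, 4309 bp) was again alone, 106.1 kb from the start of the gene.

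The first part of intron 2 held wide and narrow sites side by side. Site 6 (chr8:120368317-120372073) was 3757 bp wide and carried an exact GLI core 202 bp from its midpoint. Site 7 (chr8:120379992-120387335) was 7344 bp wide, the 24th widest of all sites, and had neither an exact core nor a word with 1 mismatch. Sites 8 (chr8:120403451-120406340, 2890 bp) and 9 (chr8:120406734-120411449, 4716 bp) adjoined. Sites 10 (chr8:120424341-120428340, 4000 bp), 11 (chr8:120432749-120434978, 2230 bp) and 12 (chr8:120437497-120439920, 2424 bp) formed a group of 15.6 kb, in which site 11 had the lowest GC content of the cluster, 51.7%, and the fewest CpGs, 7.62 per kb. Site 13 (chr8:120459261-120461734, 2474 bp) was alone, 232.0 kb into the gene.

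The later part of the gene held the sites at starts. Site 14 (chr8:120483305-120486125, 2821 bp) carried the second exact core, 324 bp from its midpoint, and ended 274 bp before site 15 (chr8:120486400-120490447, 4048 bp). The start of *Gse1-201*, 260.0 kb downstream of the first start of the gene, lay 23.5 bp from the midpoint of site 15. Sites 16 (chr8:120503266-120508187, 4922 bp), 17 (chr8:120511697-120514621, 2925 bp), 18 (chr8:120519912-120522694, 2783 bp) and 19 formed the longest group, 37.2 kb. Site 19 (chr8:120531166-120540423) was 9258 bp wide, the 9th widest of the whole list, and held the starts of *Gse1-203*, 62.5 bp from its midpoint, and of *Gse1-202*, 1.63 kb from it. Site 20 (chr8:120555731-120561299) was 5569 bp wide and contained no annotated start. Its 6 words within 1 mismatch of the core were second in number only to the 8 of site 19.

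A promoter site was defined as one with its midpoint within 2 kb of the start of any annotated transcript. There were 3 among the 20 (15%, Wilson 95% confidence interval 5.24 to 36.0%), against 45.6% of all 4099 sites on assembled chromosomes. This interval, like those given below, covers counting error only. It treats the sites as independent, which neighbours at 1 locus need not be. It is thus no test against the share of all sites. The 3 were sites 15 and 19, at *Gse1* starts, and site 18, 688 bp from the start of the noncoding *Gm26971*, which lies within a *Gse1* intron. Site 19 also held the starts of the noncoding *1700016A09Rik* and the microRNA gene *Mir7687*. The nearest edge of a site was 36.1 kb from the start of *Gse1-206* and 28.0 kb from the start of *Gins2-201*. In the RefSeq annotation of the same assembly, 3 of 3 curated *Gse1* transcripts and 5 of 8 predicted ones started inside a site. For *Gins2* it was 0 of the 1 curated transcript. The other predicted *Gse1* models started at chr8:120228501, by the start of *Gse1-206*. No curated transcript started there, so that in RefSeq this upstream start rests on predicted models alone.

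The start of *Gse1-206*, without a site, was not poorer in CpG than the starts with one. In the 2 kb centred on it, the sequence had a GC content of 68.8% and a ratio of observed to expected CpG of 0.859. The same ratio was 0.822 at *Gse1-201*, 0.674 at *Gse1-203* and 0.795 at *Gse1-202*. *Gins2-201* had the lowest values of the 5 starts, 56.7% GC and a ratio of 0.571.

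The sites in *Gse1* were wide. Their median width was 3341 bp (quartiles 2462 and 4768 bp, range 1081 to 9258 bp), against 1995 bp over the 4099 sites. Of the 20, 18 were wider than the median of the full list, the exceptions being sites 1 and 2. A width of 4 kb or more was seen in 9 of 20 (45%, interval 25.8 to 65.8%), against 10.3% of all sites. The 9 were sites 3, 5, 7, 9, 10, 15, 16, 19 and 20, and they lay in each of the later 4 of the 5 stretches of the gene. Without the 3 promoter sites the median width was 2925 bp, and it was 1865 bp over the 2228 sites outside promoters in the full list. Width depends on the peak calling, and its relation to signal height could not be examined.

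**Figure D2:**
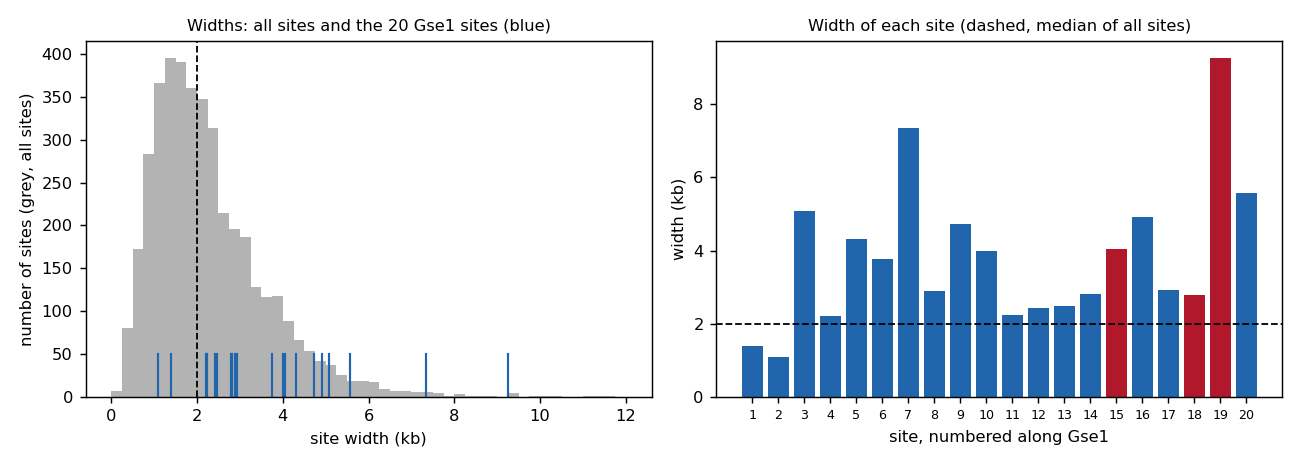
Left, the number of sites of the list in steps of 0.25 kb of width (grey), with a blue mark for each of the 20 *Gse1* sites; right, bars give the width in kb of each site in order along the gene, red for promoter sites, and the dashed line in both panels is the median of all sites (1995 bp). Only sites 1 and 2 fall below the median, and sites 7 and 19 are the widest, at 7344 and 9258 bp.

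All 20 sites were richer in GC than the median site of the list. Their GC content ranged from 51.7% to 60.8% with a median of 56.0%, against 51.4% for all sites. Restricted to sites outside promoters, the median was 56.0% for the 17 in *Gse1* and 48.6% for the 2228 of the list. Within the span, the sequence inside sites had 56.2% GC and the sequence between them 53.8%. Masked repeats made up 17.2% of the sequence inside sites and 20.5% between them. Per site, the median masked share was 16.4% in the 20 and 12.4% over all sites. Outside promoters it was 16.5% and 13.9%.

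In CpG content, sites 15 and 19 stood apart from the other 18. A ratio of observed to expected CpG of 0.4 or more was found in 2 of 20 sites, 0.716 in site 15 and 0.488 in site 19, against 39.1% of all sites. The other 18 ranged from 0.114 in site 11 to 0.317 in site 12, with no value between 0.317 and 0.488. The pair held 679 CpGs and the other 18 together 1069. Site 18, although near the start of a noncoding gene, had a ratio of 0.252 and thus resembled the intronic sites. A looser definition, a stretch of 200 bp with over 50% GC and a ratio above 0.6, was met somewhere in 12 of 20 sites (60%, interval 38.7 to 78.1%) and in 55.6% of all sites.

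**Figure D3:**
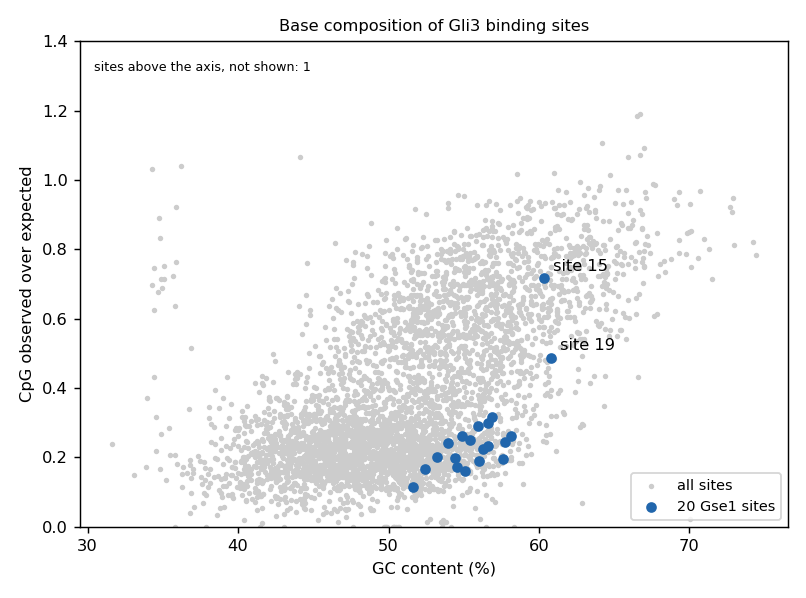
Each point is a site, with its GC content in percent on the horizontal axis and its ratio of observed to expected CpG on the vertical axis, grey for the 4099 sites on assembled chromosomes and blue for the 20 in *Gse1*. Sites 15 and 19 have ratios of 0.716 and 0.488, and the other 18 lie between 0.114 and 0.317 at GC contents above 51%.

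The exact GLI core occurred in 2 of 20 sites (10%, interval 2.79 to 30.1%), against 12.2% of all sites and 16.0% of other sites of like width. For the latter, here and below, a share was taken for each *Gse1* site among the other sites within 10% of its width. These shares were then averaged over the 20. In density, the *Gse1* sites had 0.0262 exact cores per kb, from 2 cores, and all sites had 0.0633 per kb. The 2 cores, in sites 6 and 14 shown above, were 202 and 324 bp from the midpoint, or 5.38% and 11.5% of the width. The central 200 bp of a site held a core in 0 of 20, which allows a share of up to 15%, and in 1.68% of all sites. Between the outermost sites, 4 exact cores were present in the genome, and 2 of them (50%) were in sites, which cover 25.7% of that sequence. Both cores in sites were in intron 2 of *Gse1-206*, and of the 2 outside sites 1 was in its intron 1 and 1 in coding sequence of its exon 2. With so few cores, the difference between these shares is not interpretable. Across the assembled genome 3.19% of 18532 exact cores were in sites. The span from the first to the last site held 13.5 exact cores per Mb, from only 4 cores. The assembled chromosomes held 6.80 per Mb, and this difference was not tested.

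With 1 mismatch allowed, 13 of 20 sites had a match (65%), and so did 64.7% of all sites. The 34 matches, 2 exact and 32 with a substitution, amounted to 0.446 per kb inside the sites and 0.363 per kb between them. Over all sites of the list the density was 0.475 per kb. The most frequent substitution was A2G, in 6 of 32. In site 20 the 6 words carried A2C, G1C, G1A, C6A, A2G and A9C, and were from 54 to 1452 bp from its midpoint. No match was found in 7 sites, among them site 7, the second widest, and site 15 at the start of *Gse1-201*.

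Words of other transcription factor families were counted on both strands, each site once. The bHLH word CAGCTG was found in 19 of 20 sites (95%), against 68.6% of all sites and 82.3% of other sites of like width. Its density was nearly the same inside the sites and between them, 1.04 and 0.989 per kb, and lower over all sites, 0.675 per kb. The frequency of this word was therefore shared by the sites and the surrounding sequence of *Gse1*. Site 1 had the highest density, 4.29 per kb from 6 matches.

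The SP word GGGCGGGG was found in 13 of 20 sites (65%), against 33.8% of all sites and 45.0% of sites of like width. Of its 25 matches, 11 were in site 19. The density was 0.328 per kb in the 20 sites and 0.159 between them, but 0.191 without the CpG-rich sites 15 and 19. Over all sites of the list it was 0.282 per kb. The related KLF word GGGCGTGG was found in 5 sites (25%), against 13.6% of all and 19.1% of like width.

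The homeodomain word TAATTA was found in 11 sites (55%), against 38.2% of all and 51.0% of like width. It occurred 18 times inside the sites, 0.236 per kb, and 29 times between them, 0.132 per kb. Over all sites of the list its density was 0.262 per kb. SOX proteins bind words such as ACAAAG and ACAATG. The first was found in 18 sites (90%), against 75.4% of all sites and 88.6% of sites of like width. The second was found in 10 (50%), against 56.1% of all sites and 70.4% of sites of like width. ACAATG was less dense inside the sites than between them, 0.184 and 0.349 per kb. The E-box CACGTG was likewise less dense inside, 0.131 and 0.227 per kb, and occurred in 9 sites (45%), against 30.2% of all sites and 45.3% of sites of like width. The POU octamer ATTTGCAT was found in 4 sites (20%), against 11.8% of all sites and 16.8% of sites of like width. A match is a word in the sequence and was not shown to be bound.

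**Figure D4:**
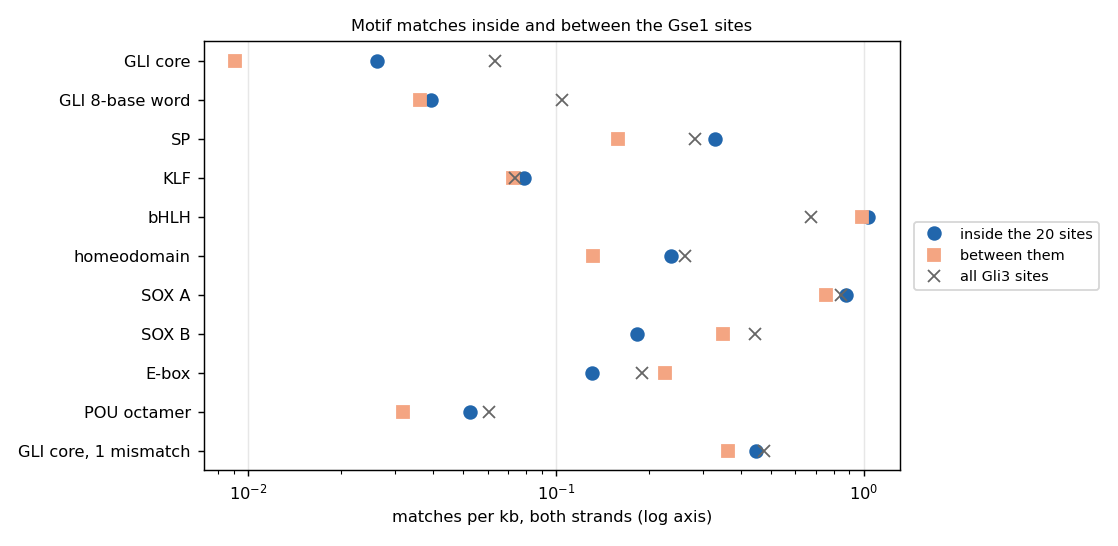
For each motif, the density in matches per kb (log axis) is given inside the 20 *Gse1* sites (blue circles), between them (orange squares) and over all Gli3 sites (grey crosses). CAGCTG (bHLH) is nearly as dense between the sites as inside them, at 0.989 and 1.04 per kb, and above the 0.675 of all sites, while ACAATG (SOX B) and CACGTG (E-box) are less dense inside than between.

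No unmasked word of 20 bases was common to any of the 190 pairs of sites. Exact words cannot show copies that have diverged, and masked repeats were not compared.

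By the nearest gene-level start, *Gins2* and *Pdia4*, an endoplasmic reticulum disulfide isomerase, had 12 sites each, then came the forkhead factor gene *Foxo6* with 10, and *Gse1*, the SOX factor gene *Sox4* and the corepressor gene *Tle3* with 8 each. A further 14 genes, *Msi2* among them, had 6 or 7. The 12 sites of *Pdia4* had a median width of 579 bp, whereas that of the 8 sites counted for *Gse1* was 3324 bp. The median was 2791.5 bp for *Tle3*, 2714 bp for *Foxo6*, 2092.5 bp for *Sox4* and 1165.5 bp for *Msi2*. The narrow sites of *Pdia4* were thus not typical of these genes. By overlap with the gene body, *Gse1* had 20 sites and *Msi2*, a gene of similar length, had 10. Of the 399 other protein-coding genes within 25% of the length of *Gse1*, 266 had 0 sites and none had more than 10. *Gm20388*, a read-through locus of 4434.9 kb whose annotation contains the whole of *Gse1*, had 47.

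**Figure D5:**
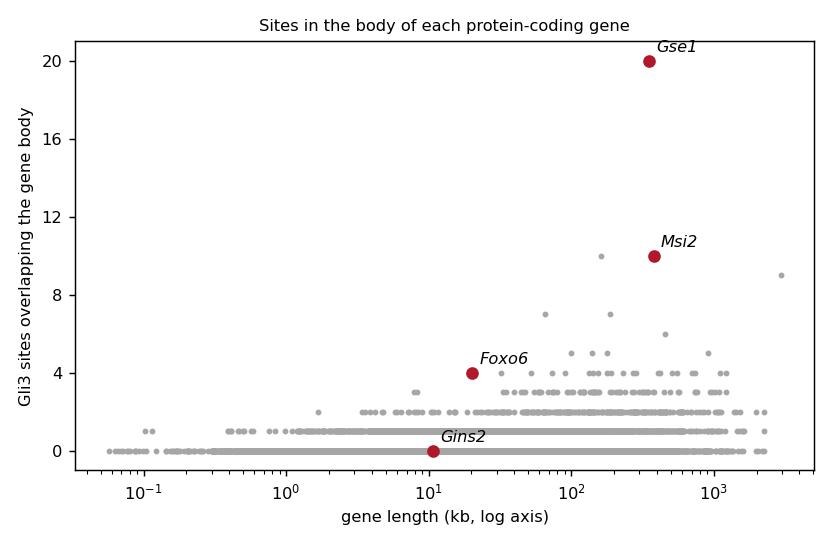
Each point is a protein-coding gene, with its length in kb (log axis) and the number of Gli3 sites that overlap its body, and the read-through locus *Gm20388* is left out. *Gse1* has 20 sites, *Msi2* has 10, and *Gins2* has 0.

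The partners of the 2 genes were examined in lists drawn up with earlier results of these data known. *Gins2* and *Gse1* were chosen for their sites, so that their own counts follow largely from the choice. The site within 50 kb of the *Gins2* start was site 20, in the body of *Gse1*. The shares of both lists are descriptions only and were not tested. Among 12 genes of the CMG helicase and its loading, 6 (50%) had a site within 50 kb of the start, *Gins2* included, against 23.4% of all 22028 protein-coding genes. A site over the start was found for 4 (33.3%), against 6.19% of all. These were *Mcm4*, *Mcm6* and *Mcm7*, subunits of the Mcm ring, and *Mcm10*, which acts at the assembled helicase. By the nearest gene-level start, *Mcm7* had 0 sites, so that the site over its start counted for another gene. The other GINS subunit genes *Gins1*, *Gins3* and *Gins4* had no site within 50 kb, and their nearest midpoints were 155.8, 144.3 and 143.3 kb away.

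Among 12 genes of the LSD1-CoREST complexes, 7 (58.3%) had a site within 50 kb, *Gse1* included, and 3 (25%) had one over the start. The shares of all protein-coding genes were 23.4% and 6.19%. The 3 were *Rcor1* and *Rcor2*, which encode CoREST scaffolds, and *Hmg20b*, an HMG-box subunit. *Kdm1a*, which encodes LSD1 itself, had its nearest site midpoint at 46.8 kb, and the deacetylase genes *Hdac1* and *Hdac2* at 154.2 and 164.8 kb. Only *Gse1*, among the 24 genes of both lists, had more than 2 sites in its body. This follows largely from the choice of the locus, and gene length was not taken into account.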

How the data were processed

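Gli3 ChIP-seq was performed by the authors on E15 wild-type cortex, with 3 ChIP and 3 input libraries. Per the paper and the labels, chromatin was sheared, libraries were sequenced from both ends with 85 bases of each used, and reads were mapped with Bowtie2 to mm10. SAMtools and MACS2 are named in the submitters' processing notes. The caller's settings and the IDR threshold are not given in the sources used here. The deposited list holds positions only, no other measured unit.

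Starts were converted to 1-based coordinates. Genes came from GENCODE M21 and RefSeq, and sequence from GRCm38, whose splice sites were canonical at 27 of 27 introns of the locus. The 15 sites on scaffolds were left out of sequence comparisons. Widths, GC, CpG and words on both strands were computed with python 3.11.15, numpy 2.4.6, scipy 1.17.1 and pysam 0.24.0. On simulated data, 300 of 300 planted cores and 1000 of 1000 nearest starts were found. The members and the lists were chosen with earlier results of these data known. Named genes were *Gse1* and *Gins2*, the 10 genes with most sites with ties (most given as counts), up to 5 neighbours on either side, and list genes with a site over the start. *Kdm1a*, *Hdac1*, *Hdac2*, *Gins1*, *Gins3*, *Gins4* and *Zcchc14* were named after their values were seen. An item that the rule covers is not reported here. Alternatives covered the assignment rule, joining of sites, motif match, promoter window and gene ranking.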

Additional observations from a re-analysis of the deposited data

How the results depend on the processing

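The list of positions allowed no measure of error, and its widths and number of sites depend on peak calling that could not be repeated. No paired analysis was possible because the replicates were joined into 1 list with no value per replicate, and for the same reason no replicate could be left out. The number of sites was 20 by transcript starts, by the nearest edge and by overlap with the gene bodies, and 17 after sites within 1 kb were joined. It was 5 when starts of noncoding genes were allowed, since these lie within *Gse1* and were nearest to the other 15. Sites with a GLI core numbered 2 by the exact word, 3 by the 8-base word, 13 with 1 mismatch and 0 in the central 200 bp. *Gse1* ranked 5 by the nearest start, 2 by overlap with the gene body and 6 after joining. There were 3 promoter sites, or 2 with only the 2 kb upstream or protein-coding transcripts, and 4 with any overlap. The share of cores in sites was 50% in the span and 33.3% over the gene bodies. The median width was 2925 bp without site 19, and the median GC content of the central 200 bp was 57.5%.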

Other observations

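In windows of the length of the cluster, each beginning at a listed site, the median number of sites was 2 and the highest was 22, in a window on chromosome 6. The cluster, with 20, was thus not the densest. The sites nearest to *Pdia4*, also on chromosome 6, had a median width of 579 bp, against 3341 bp in *Gse1*. Those nearest to *Tle3*, *Foxo6* and *Sox4* were less far from *Gse1*, with medians of 2791.5, 2714 and 2092.5 bp.

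Exact GLI cores were also present in *Gse1* outside sites. Between the first and the last site, the 2 cores outside sites were 112.6 and 125.6 kb from the start of *Gse1*, both in the gap between site 5 and site 6. A further 2 lay between site 20 and *Gins2*, at 341.6 and 344.2 kb, the former in an intron of *Gse1-201* with 88.9% of its bases masked as repeat and the latter in coding sequence of exon 11.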
